A study of Mus musculus with 12 samples.

Results

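Genes for the breakdown of branched-chain and other amino acids were followed in the cerebellar cortex of mice on 3 diets. The group was a list of 34 named genes, mostly for branched-chain, proline, lysine, glycine and phospho-amino breakdown. It also held genes of GABA, glutamate and aspartate metabolism and the carboxykinase gene Pck2. All 34 were found, by symbol, among the 54752 genes of the deposited table. The mice were wild-type males of the C57BL6J/FVB F1 hybrid strain, aged 12 weeks, with 4 fed ad libitum (AL), 4 on dietary restriction (DR) and 4 on a ketogenic diet (KD), 1 library per mouse. AL and DR mice were given the same synthetic pellets, and the DR portion was lowered in steps. Both AL and DR mice were killed at the start of the dark period, the DR mice without that day's meal. These AL and DR mice were chosen by RNA quality from a larger number. The composition and duration of the ketogenic diet are not given in the sources used here.

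The branched-chain amino acids leucine, isoleucine and valine first pass their amino group to a keto acid, which makes glutamate. In the mitochondria, the branched-chain keto acid dehydrogenase (BCKDH) complex then commits the carbon skeletons to oxidation, and a kinase, BCKDK, switches this complex off. In brain these reactions are known as a source of nitrogen for glutamate and glutamine, while proline, GABA, glycine and phosphoethanolamine have breakdown enzymes of their own, several of them abundant in astrocytes.

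Libraries held 31712084 to 40798644 counted reads, and no difference in library totals between diets passed the test (exact permutation tests, two-sided, p = 0.6 for DR and AL, 0.8 for KD and AL, 0.257 for KD and DR). Values below are CPM, which are read counts scaled to library size, after TMM, which corrects for library composition. Differences were tested with the quasi-likelihood method of edgeR, a gene was called where its Benjamini-Hochberg adjusted p lay below 0.05, and log2 fold changes are given ± their standard errors. All 34 genes passed the low-count filter in each comparison, and the lowest count of any member in any mouse was 242. Markers of granule cells and of Bergmann glia were abundant in all libraries (summed levels of at least 4263 and 2700 CPM), and those of choroid plexus were low (8.39 to 17.5 CPM). Nothing in the labels says whether mice on a diet shared a cage or a preparation day. The p-values weigh a difference only against the spread between these mice.

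On DR, 6 of the 34 genes were higher than on AL and 0 were lower, where 3.06% of all 19052 genes tested were called, 1.32% higher and 1.74% lower. The 6 were Etnppl, Prodh, Pck2, Mcee, Pcca and Ivd. The list was chosen with earlier results of these data known, so its counts beside those of all genes are descriptive only. On KD, 0 of the 34 were called against AL, as were 0 of all 19036 genes tested in edgeR (0%, with 928 at an unadjusted p under 0.05, and 10 called by DESeq2). Against DR, KD had 6 of the 34 lower and 0 higher, where 4.94% of 19087 genes were called, 2.51% lower and 2.43% higher, and these were Etnppl, Prodh, Pck2, Aldh6a1, Bcat1 and Ivd. Both of these comparisons use the same 4 DR mice, so the second does not repeat the first independently. All 4 DR mice lay above all AL mice in 7 of the 34 genes (5.3% of all genes) and below them in 1 (5.64%). All KD mice lay above all DR mice in 1 of the 34 (6.03%) and below them in 9 (5.79%). Between KD and AL, 2.96% of all genes did not overlap, and of the 34 none was higher in all KD mice (1.41% of all genes) and 1 was lower (1.55%).

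**Figure D1:**
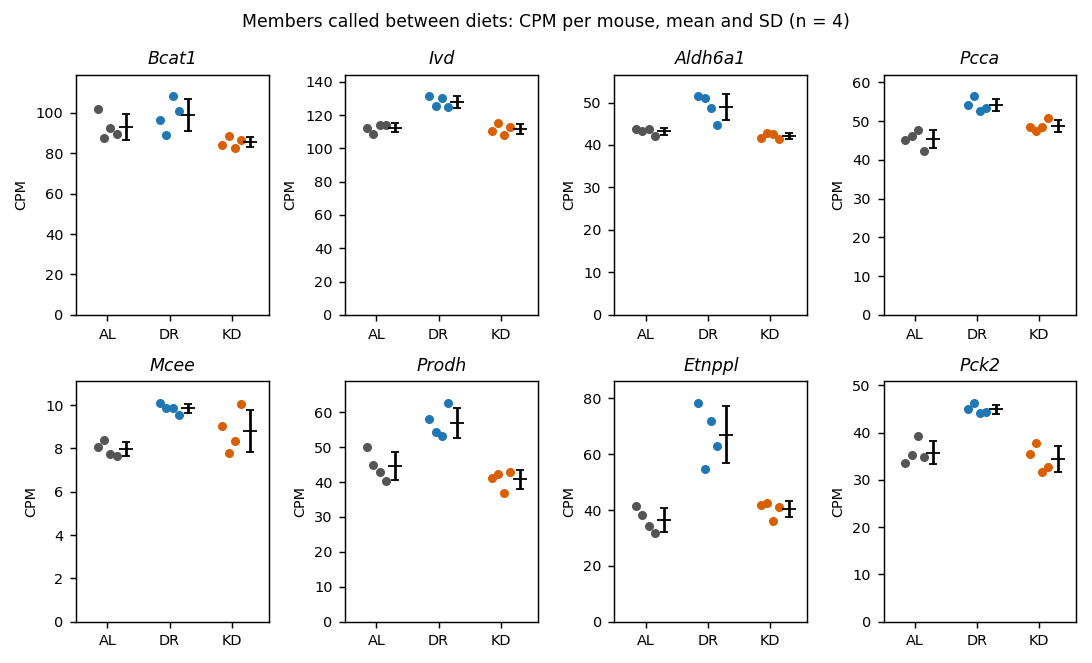
CPM in each mouse (vertical axis, from 0) on AL, DR and KD for the 8 genes called in at least 1 comparison, 1 point per mouse, with the mean and SD of 4 mice as bars. In Etnppl, Prodh, Pck2, Ivd, Pcca and Aldh6a1 all 4 DR mice lie above all AL and all KD mice.

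Etnppl (ENSMUSG00000019232.14, chromosome 3 of GRCm38.p6, 130617448 to 130637521) encodes the lyase that breaks down phosphoethanolamine, and is known as an astrocyte gene. Its level was 41.3, 38.4, 34.1 and 31.9 CPM in AL mice 1 to 4, 78.3, 54.8, 71.8 and 62.9 CPM in DR mice 1 to 4, and 41.9, 42.5, 36.0 and 41.1 CPM in KD mice 1 to 4. Every DR mouse was above every other mouse, the DR mice also had the widest spread, and AL and KD mice overlapped. The means were 36.4 ± 4.21 on AL, 67.0 ± 10.3 on DR and 40.4 ± 2.998 CPM on KD (SD, n = 4 each). DR was 1.84-fold higher than AL (log2 0.88 ± 0.10, adjusted p = 0.000487), and KD was lower than DR (log2 -0.73 ± 0.09, adjusted p = 0.000225). Between KD and AL the log2 difference was 0.15 (95% interval -0.01 to 0.31), not called. In bulk tissue, a larger share of one cell type and more RNA per cell cannot be told apart.

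Of 10 markers of Bergmann glia and astrocytes, 3 were lower on DR than on AL (1.74% of all genes) and 0 higher (1.32%). These were Aqp4, Hopx and Gja1 (log2 fold changes -0.52, -0.47 and -0.24, adjusted p = 0.000706, 0.00143 and 0.0124). The summed level of the 10 markers was 3041 to 3171 CPM on AL, 2700 to 2829 on DR and 2927 to 3074 on KD. None of the 10 markers was at 0. The change of Etnppl ran against the summed level of these markers, and their part in it was not tested. Of the Purkinje cell markers Pcp2, Calb1, Car8, Itpr1 and Pvalb, 1 was lower on DR than on AL (Car8, log2 -0.25 ± 0.06, adjusted p = 0.0327) and 0 higher. All 4 DR mice lay below all AL mice in 3 of these 5 markers (5.64% of all genes). Their summed level was 6708 to 7231 CPM on AL, 5738 to 6622 on DR and 6679 to 6916 on KD, so DR did not overlap the other diets. The part of these markers in the changes of the 34 genes was not tested. Hopx and Pcp2 are uncertain, since 27.2% and 51.5% of their exonic bases are shared with a gene on the opposite strand. Each of them is part of its summed level above.

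**Figure D2:**
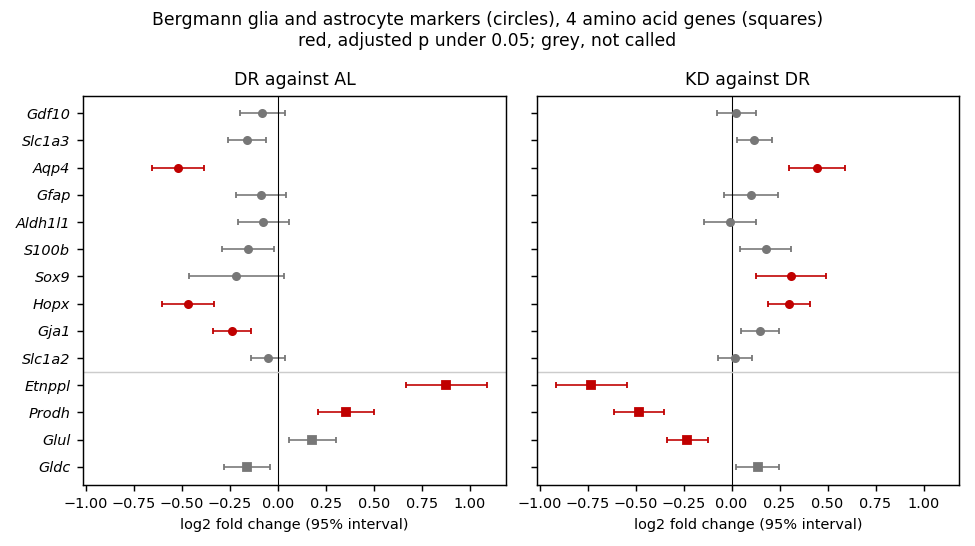
Log2 fold changes with 95% intervals (horizontal axis) of 10 Bergmann glia and astrocyte markers (circles) and of Etnppl, Prodh, Glul and Gldc (squares), for DR against AL and KD against DR. All 10 markers lie below 0 for DR against AL, 3 of them called (red), while Etnppl and Prodh lie above 0.

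Prodh, proline dehydrogenase, starts the oxidation of proline (ENSMUSG00000003526.12, chromosome 16, 18060357 to 18090203). It was at 50.2, 44.9, 43.0 and 40.4 CPM in AL mice 1 to 4, at 57.9, 54.3, 53.2 and 62.6 CPM in DR mice 1 to 4, and at 41.0, 42.4, 36.8 and 43.0 CPM in KD mice 1 to 4. All DR mice were above all others. DR was 1.28-fold higher than AL (log2 0.35 ± 0.07, adjusted p = 0.0128), and KD lay below DR (log2 -0.48 ± 0.06, adjusted p = 0.000351). Between KD and AL the log2 difference was -0.13 (95% interval -0.27 to 0.01), not called. Aldh4a1, the next enzyme of proline oxidation, was not called in any comparison, at 14.9 ± 0.403 on AL, 15.5 ± 0.940 on DR and 13.9 ± 0.521 CPM on KD (SD, n = 4 each). The KD mice lay below all AL mice (1.55% of all genes) and all DR mice (5.79%). The highest KD mouse (14.39 CPM) was only just below the lowest AL mouse (14.42 CPM). A gene on the same strand covers 32.5% of the exonic bases of Aldh4a1, so its own level is uncertain. Abat, GABA transaminase, was also not called, at 291 to 324 CPM over the 12 mice.

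Pck2 encodes the mitochondrial phosphoenolpyruvate carboxykinase, which draws carbon from the citric acid cycle (ENSMUSG00000040618.7, chromosome 14, 55540266 to 55551242). AL mice 1 to 4 had 33.5, 35.3, 39.3 and 34.9 CPM, DR mice 1 to 4 had 45.1, 46.2, 44.0 and 44.3 CPM, and KD mice 1 to 4 had 35.5, 37.7, 31.6 and 32.7 CPM. The DR mice were close together and above every AL and KD mouse. The log2 fold change of DR against AL was 0.33 ± 0.05 (1.26-fold, adjusted p = 0.00574), and that of KD against DR was -0.39 ± 0.06 (adjusted p = 0.000963). Between KD and AL it was -0.05 (95% interval -0.19 to 0.08).

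Pck2 and Etnppl were highest on DR and have a stretch before an annotated start in which no annotated exon lies. This also held for Aldh6a1 and for the first of the 2 starts of Pcca. The stretches of Pck2 and Etnppl are shown. Each is the 250 bases upstream of the RefSeq start on the plus strand of GRCm38.p6, chr14:55540016-55540265 for Pck2 and chr3:130617198-130617447 for the first of the 2 starts of Etnppl. Capitals mark a match to TGATGNAA, the core of the C/EBP-ATF response element (CARE), which lies on the opposite strand 103 to 96 bases before the start of Pck2.
Pck2: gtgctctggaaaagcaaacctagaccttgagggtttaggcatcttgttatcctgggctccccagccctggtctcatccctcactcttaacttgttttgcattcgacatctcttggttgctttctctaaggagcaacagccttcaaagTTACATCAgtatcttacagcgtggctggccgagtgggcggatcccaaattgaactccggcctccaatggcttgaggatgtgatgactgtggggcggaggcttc
Etnppl: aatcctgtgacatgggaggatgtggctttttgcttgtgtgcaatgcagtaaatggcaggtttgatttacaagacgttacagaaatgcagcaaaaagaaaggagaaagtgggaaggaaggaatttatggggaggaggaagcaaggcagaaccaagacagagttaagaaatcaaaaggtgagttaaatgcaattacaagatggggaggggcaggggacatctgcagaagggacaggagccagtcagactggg
RefSeq windows were found for 32 of the 34 genes. This core, searched on both strands, was present in 3.45% of the 32851 upstream windows of all genes, in 1 of the 12 windows of the 8 called members (Pck2), and in 1 of the 26 windows of the other members with a window (Got1, not called in any comparison). The cAMP response element TGACGTCA was in none of the members' windows and in 1.55% of all windows. The E-box CACGTG (6.02% of all windows) matched in Mccc2. The glucocorticoid receptor palindrome ACANNNTGT (5.84%) matched in Ivd and in 1 of the windows of Bckdhb. In Ivd this palindrome lies 42 to 34 bases before the RefSeq start, mostly within 40 bases annotated as exon of Ivd. No matches to different motifs overlapped among the members. The 8 called members did not share any of these 4 motifs in this stretch, and a match describes letters only.

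In the leucine branch, Ivd was the called gene. It encodes isovaleryl-CoA dehydrogenase, the step after the BCKDH complex (ENSMUSG00000027332.11, chromosome 2, 118861954 to 118882909). AL mice 1 to 4 had 112, 109, 114 and 114 CPM, DR mice 1 to 4 had 131, 125, 130 and 125 CPM, and KD mice 1 to 4 had 110, 115, 108 and 113 CPM. AL and KD mice were interleaved, with all DR mice above them. The difference was small but exceeded the spread (DR against AL 1.14-fold, log2 0.19 ± 0.04, adjusted p = 0.0246). KD was below DR (log2 -0.20 ± 0.04, adjusted p = 0.0106). Against AL, Ivd was no longer called without AL mouse 1, 2 or 4 or DR mouse 3 (adjusted p = 0.0720, 0.0878, 0.0593 and 0.0808), while the log2 fold change stayed between 0.17 and 0.20.

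The other leucine genes were Mccc1 and Mccc2, the subunits of methylcrotonyl-CoA carboxylase, and Auh, the hydratase after it, and none of them was called. Mccc1 was at 67.8 ± 4.21 on AL, 73.3 ± 4.96 on DR and 66.2 ± 2.18 CPM on KD (SD, n = 4 each), with all KD mice below all DR mice (KD against DR adjusted p = 0.113, unadjusted 0.0103). In that comparison KD and DR mice did not overlap in 11.8% of all genes. Mccc2 and Auh had log2 fold changes of 0.06 and 0.02 for DR against AL.

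The propionyl-CoA branch takes up the end products of isoleucine and valine. Of its 3 genes, 2 were called higher on DR than on AL (1.32% of all genes). Pcca, the alpha subunit of propionyl-CoA carboxylase (ENSMUSG00000041650.15, chromosome 14, 122534324 to 122891100), was at 45.1, 46.2, 47.6 and 42.3 CPM in AL mice 1 to 4, at 54.2, 56.4, 52.6 and 53.3 CPM in DR mice 1 to 4, and at 48.4, 47.4, 48.3 and 50.8 CPM in KD mice 1 to 4. All DR mice were above the rest, and the KD mice ran from just under the highest AL mouse upwards. DR was 1.19-fold higher than AL (log2 0.26 ± 0.05, adjusted p = 0.0121). KD lay between the other diets, with log2 fold changes of 0.11 against AL (unadjusted p = 0.0380, adjusted p = 0.994) and -0.15 against DR (adjusted p = 0.0606). The second of these was called with DESeq2 (adjusted p = 0.0450), with scaling by library size only (0.0378) and with a stricter filter (0.0357).

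Mcee, methylmalonyl-CoA epimerase (ENSMUSG00000033429.10, chromosome 7, 64392607 to 64412125), had the lowest CPM of the 34 genes. Its values were 8.06, 8.39, 7.75 and 7.67 CPM in AL mice 1 to 4, 10.1, 9.86, 9.87 and 9.56 CPM in DR mice 1 to 4, and 9.01, 7.79, 8.35 and 10.1 CPM in KD mice 1 to 4. AL and DR mice did not overlap, and the KD mice spread from AL levels to DR levels. DR was 1.24-fold higher than AL (log2 0.30 ± 0.08, adjusted p = 0.0441). This call was lost when any 1 of the 8 mice was left out (adjusted p between 0.0679 and 0.117, with AL mouse 4 giving the highest), although the log2 fold change stayed between 0.29 and 0.33. Without the low-count filter it was also lost (adjusted p = 0.0646). Pccb, the beta subunit of propionyl-CoA carboxylase, was at 78.6 ± 3.52 on AL, 86.5 ± 7.60 on DR and 78.4 ± 4.08 CPM on KD (SD, n = 4 each) and was not called (DR against AL adjusted p = 0.232, unadjusted 0.0333).

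The isoleucine and valine branch held 6 genes. Of these, 0 were called between DR and AL (3.06% of all genes) and 1 was lower on KD than on DR (2.51%). That gene, Aldh6a1, encodes methylmalonate semialdehyde dehydrogenase, the last step of valine breakdown before propionyl-CoA (ENSMUSG00000021238.11, chromosome 12, 84430717 to 84451004). It was at 43.7, 43.3, 43.7 and 42.1 CPM in AL mice 1 to 4, at 51.4, 51.0, 48.7 and 44.6 CPM in DR mice 1 to 4, and at 41.5, 42.8, 42.5 and 41.3 CPM in KD mice 1 to 4. DR mice lay above all AL and KD mice, DR mouse 4 only just. KD was below DR (log2 -0.22 ± 0.05, adjusted p = 0.0215), a call that held in 2 of 8 repeats lacking 1 mouse and was lost without DR mouse 1, 2 or 3 or KD mouse 1, 3 or 4 (adjusted p between 0.0510 and 0.0728). Between DR and AL the log2 fold change was 0.18 (adjusted p = 0.0772), and it was called without DR mouse 4 (0.0331), with all 12 libraries in one fit (0.0359) and with DESeq2 (0.0439). Bbof1, which shares 18.6% of the exonic bases of Aldh6a1 on the opposite strand, was not called (log2 fold changes 0.17 for DR against AL and -0.05 for KD against DR), and the library kit did not keep strand, so reads in the shared part cannot be assigned.

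Among the rest of this branch, Acad8 (isobutyryl-CoA dehydrogenase) was at 49.3 ± 1.59 on AL, 53.8 ± 3.51 on DR and 49.8 ± 1.83 CPM on KD, and Hsd17b10, a dehydrogenase of isoleucine breakdown, at 13.0 ± 1.33, 14.5 ± 1.15 and 14.7 ± 0.740 CPM (SD, n = 4 each). Acad8 had unadjusted p of 0.0314 for DR against AL and 0.0459 for KD against DR, and Hsd17b10 of 0.0402 for KD against AL, none of which passed after adjustment. Such p-values were found in 18% of all genes for DR against AL, 4.87% for KD against AL and 18.7% for KD against DR. Acadsb, Hibch and Hibadh had log2 fold changes between -0.03 and 0.11 for DR against AL.

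At the entry of the pathway, Bcat1, the cytosolic branched-chain aminotransferase, was the called gene (ENSMUSG00000030268.17, chromosome 6, 144993835 to 145076184). AL mice 1 to 4 had 102, 87.6, 92.6 and 89.6 CPM, DR mice 1 to 4 had 96.5, 89.1, 108 and 101 CPM, and KD mice 1 to 4 had 84.1, 88.4, 82.7 and 86.6 CPM. The AL mice overlapped both other diets, and the lowest DR mouse was just above the highest KD mouse. KD was lower than DR (log2 -0.21 ± 0.05, adjusted p = 0.0331), while KD against AL was -0.12 (unadjusted p = 0.0250, adjusted p = 0.981) and DR against AL 0.09 (adjusted p = 0.505). The KD and DR call was lost without DR mouse 3 or 4 or KD mouse 1, 3 or 4 (adjusted p between 0.0724 and 0.109).

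None of the other 6 genes of this step was called. Bcat2, the mitochondrial aminotransferase, had log2 fold changes of -0.01 for DR and -0.03 for KD against AL, and KD mice ranged from 26.5 to 37.2 CPM. Within a mouse, the level of Bcat1 per kilobase of exons was 1.20 ± 0.0647 times that of Bcat2 on AL, 1.29 ± 0.108 times on DR and 1.15 ± 0.182 times on KD (SD, n = 4 each), ranges that overlap. The E1 subunits Bckdha and Bckdhb had log2 fold changes of 0.09 and 0.14 for DR against AL, with 95% intervals from -0.10 to 0.28 and from -0.005 to 0.29. For Dbt, the E2 subunit, DR mice (15.9 to 16.7 CPM) lay just below AL mice (16.8 to 17.9 CPM) without passing the test (log2 fold change -0.08, adjusted p = 0.535), and 10.9% of all genes did not overlap between these diets. Dld, the E3 subunit that BCKDH shares with other dehydrogenases and with glycine cleavage, had a log2 fold change of 0.03 (95% interval -0.06 to 0.11) between DR and AL. Bckdk, the inhibiting kinase, was at 30.6 ± 1.45 on AL, 32.6 ± 1.10 on DR and 29.7 ± 2.35 CPM on KD (SD, n = 4 each), with an unadjusted p of 0.0409 for KD against DR (adjusted p = 0.242). Other genes cover 61.7% of the exonic bases of Bckdha and 15.9% of those of Bcat2 on the opposite strand, so both levels are uncertain.

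**Figure D3:**
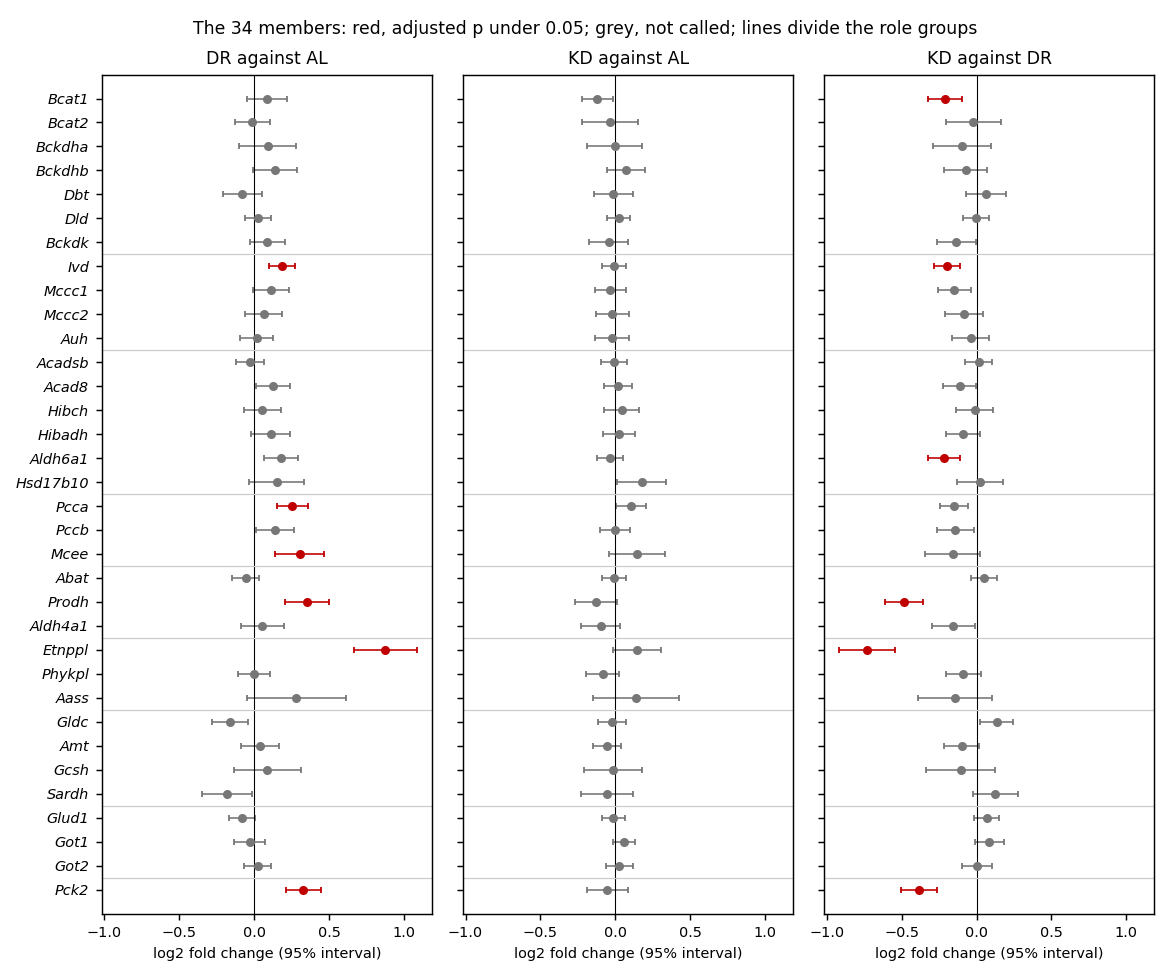
Log2 fold changes with 95% intervals (horizontal axis) of all 34 genes, ordered by role, for DR against AL, KD against AL and KD against DR. Red points are called (6, 0 and 6 genes), and most grey points lie within 0.2 of 0.

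Of the glycine cleavage genes and sarcosine dehydrogenase, none was called. Gldc, the decarboxylase of glycine cleavage and an astrocyte gene, was at 41.0 ± 1.51 on AL, 36.6 ± 2.31 on DR and 40.2 ± 0.642 CPM on KD (SD, n = 4 each), with DR mouse 3 (39.8 CPM) among the AL mice and the other DR mice below them (log2 fold change of DR against AL -0.16, unadjusted p = 0.0112, adjusted p = 0.138). Per kilobase of exons and within a mouse, Gldc was 0.426 ± 0.0144 times Amt on AL, 0.372 ± 0.0313 times on DR and 0.436 ± 0.0148 times on KD (SD, n = 4 each). The size of this ratio depends on the annotation, since Gldc has 3754 exonic bases in the deposited table and 6091 in a later GENCODE release. The ratios of AL and DR mice did not overlap (0.412 to 0.439 and 0.338 to 0.403). Several gene pairs were examined in this way, and the difference was not tested. Amt and Gcsh, the partner subunits of Gldc, had log2 fold changes of 0.04 and 0.09 for DR against AL. Sardh averaged 13.8 ± 1.33 CPM in AL mice and 12.2 ± 0.197 CPM in DR mice (SD, n = 4 each, log2 fold change -0.18, unadjusted p = 0.0352, adjusted p = 0.238).

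In the remaining roles, Glud1, Got1 and Got2, which move nitrogen between glutamate, ammonia and aspartate, had log2 fold changes of -0.08, -0.03 and 0.02 for DR against AL and of -0.01, 0.06 and 0.03 for KD against AL, with 95% intervals within -0.17 and 0.13. Got2 and Glud1 have copies that are 97.6 to 99.2% identical over at least 656 bases, so their reads may be divided. Phykpl, the lyase for phosphohydroxylysine and a relative of Etnppl, had a log2 fold change of 0.002 for DR against AL (95% interval -0.11 to 0.11). Aass, which starts lysine breakdown, varied more between mice on AL and on DR than any of the other 33 genes relative to its mean, from 10.9 to 18.1 CPM on AL and 12.5 to 19.99 CPM on DR (log2 0.28 ± 0.15, adjusted p = 0.366).

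Per kilobase of exons, the levels spanned from Sardh (2.54 ± 0.244 CPM per kilobase on AL) to Got1 (132 ± 2.42, SD, n = 4 each). All annotated exonic bases of a gene were counted as its length, so ranks and ratios between genes depend on the annotation. Got1, Got2, Glud1, Abat and Dld had the highest means, and the called genes stood lower, from Ivd at 20.4 ± 0.473 to Etnppl at 4.41 ± 0.510 CPM per kilobase on AL. Got1 was 2.99 ± 0.0916 times Got2 per kilobase on AL. Pcca was 0.307 ± 0.00333 times Pccb on AL, 0.334 ± 0.0199 times on DR and 0.332 ± 0.0208 times on KD (SD, n = 4 each). These ratios were 0.303 to 0.3108 in AL mice, 0.3112 to 0.360 in DR mice and 0.3112 to 0.355 in KD mice. AL mice did not overlap the others, but the gap was very small. Ratios of several gene pairs were examined, and differences in them between diets were not tested.

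**Figure D4:**
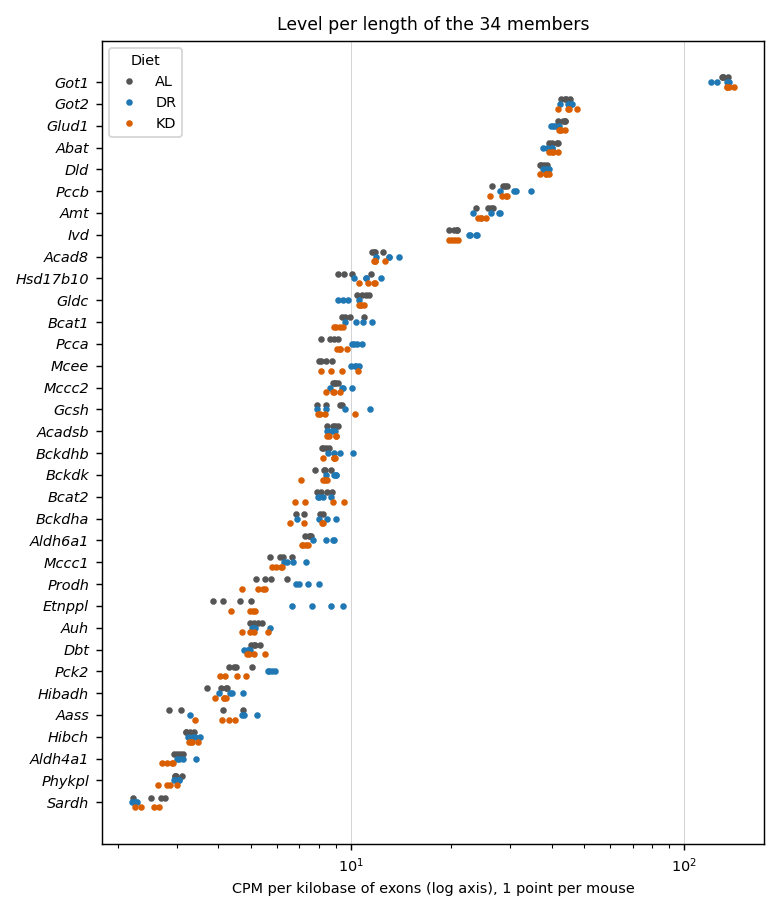
Level per length of the 34 genes in CPM per kilobase of exons (horizontal log axis), 1 point per mouse, coloured by diet and ordered by the mean of 12 mice. Got1 stands apart at about 132, and the DR points of Etnppl, Prodh and Pck2 lie to the right of their AL and KD points.

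Over the whole list, chosen with earlier results of these data known, 26 of 34 genes had a log2 fold change above 0 for DR against AL (51% of all genes). The median was 0.09 against 0.004 for all genes tested. For KD against AL 12 of 34 were above 0 (50.1% of all genes), with a median of -0.01 against 0.0002, and for KD against DR 9 of 34 (49.2% of all genes), with a median of -0.09 against -0.002. Single mice moved the second of these counts, which ran from 12 to 18 with 1 mouse left out. Scaling by library size in place of TMM left 27, 12 and 7 genes above 0, while over all genes it changed the share of called genes that were higher from 43.2 to 57% for DR against AL and from 49.2 to 37.9% for KD against DR.

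Other genes of the same pathways were taken from lists. Of 26 further genes for branched-chain breakdown and transport, 0 were called between DR and AL (3.06% of all genes), and 2 were lower on KD than on DR (2.51% of all genes). These were Klf15, a transcription factor known to control branched-chain amino acid breakdown in muscle and liver, and Mmab, which makes the cobalamin cofactor of methylmalonyl-CoA mutase. Klf15 was at 22.6, 27.0, 24.0 and 20.2 CPM in AL mice 1 to 4, 22.2, 21.7, 27.2 and 25.0 CPM in DR mice 1 to 4, and 19.7, 17.2, 17.4 and 15.01 CPM in KD mice 1 to 4. Here the KD mice lay below all AL mice (1.55% of all genes) and all DR mice (5.79%). The highest KD mouse was only just below the lowest AL mouse. The log2 fold change of KD was -0.47 ± 0.09 against DR (adjusted p = 0.00482) and -0.44 ± 0.09 against AL (unadjusted p = 0.000240, adjusted p = 0.380), and that of DR against AL was 0.04. Mmab had means of 13.7 ± 1.18 on AL, 16.1 ± 1.16 on DR and 13.3 ± 0.374 CPM on KD (SD, n = 4 each, KD against DR adjusted p = 0.0307). None of the 7 transporters was called, and Ppm1k, the phosphatase that opposes Bckdk, had log2 fold changes of 0.03 for DR against AL and -0.11 for KD against DR (adjusted p = 0.159).

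Of 55 further enzymes for other amino acids, 48 were tested between DR and AL, where 1 was higher and 2 lower (1.32% and 1.74% of all genes), and 49 between KD and DR, where 2 were higher and 5 lower (2.43% and 2.51% of all genes). Asl, argininosuccinate lyase of arginine synthesis, was at 15.6, 14.3, 17.4 and 14.4 CPM in AL mice 1 to 4, 24.4, 22.1, 23.0 and 22.2 CPM in DR mice 1 to 4, and 15.2, 17.4, 12.7 and 14.6 CPM in KD mice 1 to 4. All DR mice were above all others (log2 fold change 0.57 against AL, adjusted p = 0.001, and -0.62 for KD against DR, adjusted p = 0.000459). Gatm, the first enzyme of creatine synthesis, and Aldh1l2, a mitochondrial folate enzyme, had their lowest values on DR. Gatm was at 77.2 ± 3.87, 66.7 ± 1.01 and 75.9 ± 4.95 CPM on AL, DR and KD (SD, n = 4 each), called lower on DR than on AL (adjusted p = 0.0240) and higher on KD than on DR (0.0375). Aldh1l2 was at 19.2 ± 1.40, 13.4 ± 0.927 and 17.8 ± 1.97 CPM, with adjusted p of 0.00202 and 0.00910 in the same comparisons, and 14.1% of its exonic bases overlap another gene. The other genes lower on KD than on DR were Glul, glutamine synthetase of astrocytes (897 ± 20.5 against 1051 ± 72.6 CPM, adjusted p = 0.0141), Psph of serine synthesis (14.5 ± 1.68 against 18.4 ± 0.911 CPM, 0.0216), Cbs of cysteine synthesis (35.9 ± 1.42 against 41.9 ± 3.70 CPM, 0.0473) and Dhtkd1 of lysine breakdown (7.83 ± 0.519 against 9.92 ± 1.21 CPM, 0.0477), with SD over 4 mice. None of these 4 was called between DR and AL, and 10.4% of the exonic bases of Psph overlap another gene.

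**Figure D5:**
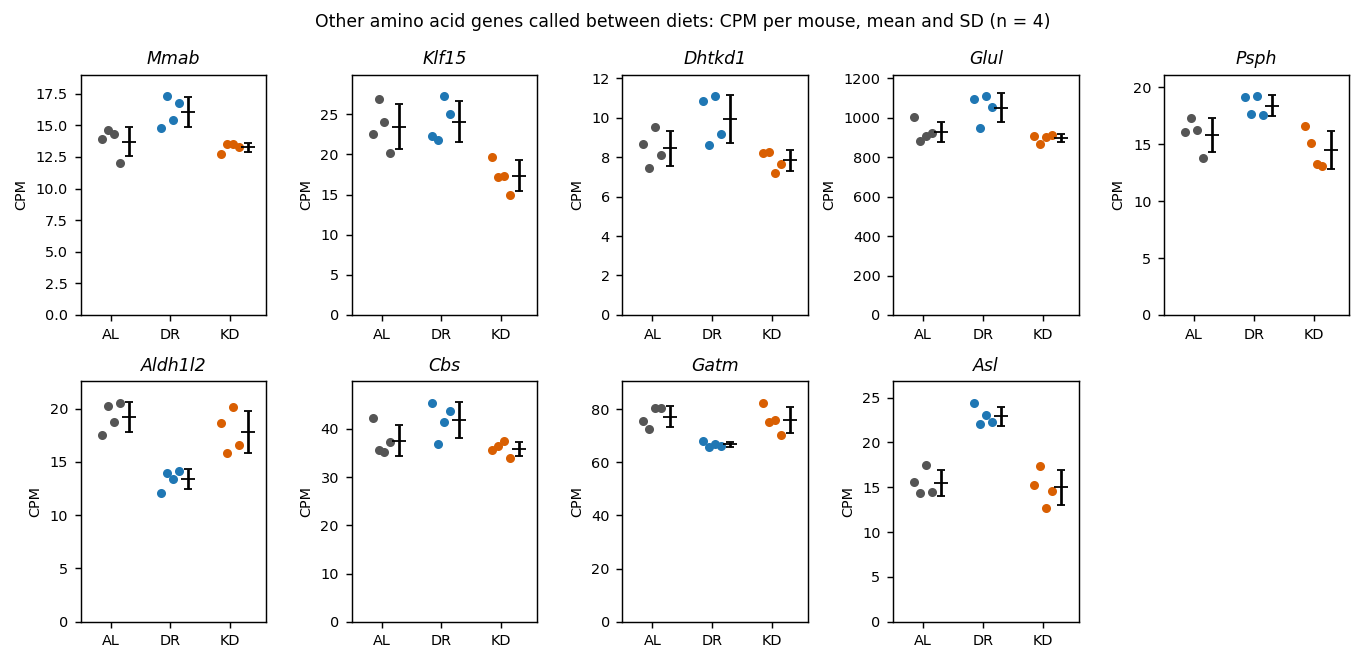
CPM in each mouse (vertical axis, from 0) on AL, DR and KD for the 9 further amino acid genes called in at least 1 comparison, with the mean and SD of 4 mice as bars. Asl is highest and Aldh1l2 and Gatm lowest in the 4 DR mice, and Klf15 is lowest in the 4 KD mice.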

How the data were processed

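Poly(A) RNA of 12 mice was sequenced from both ends. The authors trimmed reads with Trimmomatic 0.39, aligned them with STAR 2.7.0f to GRCm38.p6, counted them per gene with featureCounts of Subread 1.6.4 and deposited these counts, not normalized, for 54752 genes. The library kit did not keep strand, and how reads in overlapping genes were counted is not given in the sources used here. The diet came from the labels, and mice were numbered within a diet in accession order, which pairs no mice.

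Symbols were matched to 54723 genes with a later GENCODE release, from which exon overlaps were taken. Pairs of diets were compared using only their 8 libraries, with edgeR 4.0.16 in R 4.3.3 (filterByExpr with minimum count 10 and total 15, TMM, quasi-likelihood test, Benjamini-Hochberg adjustment over all genes tested, threshold 0.05). CPM used TMM factors of all 12 libraries (0.991 to 1.02). Alternatives were DESeq2 1.42.0, other scalings and filters, one fit of all libraries, and each mouse left out. All 18 pairs of mice on a diet differed by more than sampling noise (4.60 to 10.5 chi-square units per gene). Promoter windows are those of RefSeq on GRCm38.p6. The members and lists were chosen with earlier results of these data known. Members called in any comparison, or with an unadjusted p under 0.05, were named with values, as were the other listed genes that were called, while Hopx, Aqp4, Gja1, Car8, Ppm1k, Bbof1 and Dbt were named after their values were seen. Some listed cell type markers are not reported here.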

Additional observations from a re-analysis of the deposited data

Results flagged for a closer look

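Each of the 34 genes was searched for 1 outlying mouse in each diet of 4 with Dixon's test (102 groups, of which chance flags about 1 in 20), and 4 groups were flagged. Acad8 was at 52.5 CPM in KD mouse 4, against 48.5 to 49.1 CPM in the other KD mice. Gcsh, the carrier protein of glycine cleavage, was at 16.2 CPM in the same KD mouse, against 12.6 to 13.2 CPM. Bckdhb, a BCKDH subunit, was at 14.9 CPM in KD mouse 2, against 16.1 CPM in the others. Got1 was at 343 CPM in AL mouse 4, against 330 to 332 CPM. None of these 4 genes was called in any comparison.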

How the results depend on the processing

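The number of the 34 genes called was 5 to 7 between DR and AL, 0 between KD and AL and 6 or 7 between KD and DR under the 6 other settings, and 4 to 6, 0, and 4 to 6 with 1 mouse left out. Etnppl, Pck2, Prodh and Pcca were called between DR and AL, and Etnppl, Pck2, Prodh and Ivd between KD and DR, in every one of these fits. Log2 fold changes of the genes called in any comparison kept their sign, except Ivd between KD and AL, at -0.01 and from -0.0265 to 0.00749 with a mouse left out (0.00083 without AL mouse 3 and 0.00749 without KD mouse 3). Without the low-count filter Aass was called between DR and AL, and Mcee was not tested where a mean above 10 CPM was required. Over all genes, where 583, 0 and 942 were called for DR against AL, KD against AL and KD against DR, DESeq2 called 1014, 10 and 1322, and without the low-count filter the counts were 1258, 118 and 1503. With 1 mouse left out they ran from 235 to 712, from 0 to 6 and from 467 to 946. The DR against AL count fell to 264, 276 and 244 without AL mouse 1, 2 or 4 and to 353 and 235 without DR mouse 1 or 3, the KD against AL count was 6, 2 and 5 without AL mouse 1, 3 or 4, and the KD against DR count fell to 520 without DR mouse 3 and to 526, 467 and 601 without KD mouse 1, 3 or 4. The cause was not tested, beyond the smaller number of mice. With 4 mice per diet and changes often near 0.1 on the log2 scale, a gene not called is not shown to be unchanged.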
